A study of Mus musculus with 11 samples.

Results

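The genes examined were the inflammatory chemokine receptors of the mouse kidney: Ccr1, Ccr2, Ccr6, Ccrl2, Cxcr3, Cxcr4, Cxcr6, Cx3cr1 and Ackr1. They were taken by symbol from a table of 25677 genes, and 8 of the 9 have a row in it; Ackr1 was not analysed here. Kidney RNA was sequenced from 11 female mice, each 21 weeks old and each giving its own library. The Ctr group held 3 C57B6 mice (C57BL/6J in the methods), the Lpr group 4 untreated MRL/lpr mice, and the DNase group 4 MRL/lpr mice given DNase I by daily intraperitoneal injection from week 17. DNase I is an enzyme that cuts extracellular DNA, including the DNA scaffold of neutrophil extracellular traps, and MRL/lpr is a lupus-prone strain that carries a Fas mutation on the MRL background. The control strain is not MRL, and strain and disease therefore cannot be told apart in any comparison with Ctr.

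Chemokine receptors are G protein-coupled receptors on leukocytes. A chemokine released or displayed in a tissue binds its receptor, the receptor signals through Gi proteins, and the cell moves up the gradient. Ccr1, Ccr2 and Cx3cr1 are best known on monocytes and macrophages, Cxcr3 and Cxcr6 on activated T cells and natural killer cells, Ccr6 on B cells and interleukin-17-producing T cells, and Cxcr4 on nearly all leukocytes. Ccrl2 is an atypical receptor that binds chemerin without classical signalling, and Ackr1 is a chemokine-binding receptor of red cells and venules. In lupus nephritis these receptors are studied because leukocytes enter the kidney through them.

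Library totals ran from 33469858 to 38460873 counts. Of the 11 libraries, Lpr replicate 3 stood apart in having lower values for longer genes, with a slope of -0.393 log2 units per log2 of gene length against -0.0433 to 0.0775 in the others. Tubule and podocyte markers were present in all libraries: the summed level of 4 proximal tubule genes ran from 4137 to 10049 CPM, and that of 3 podocyte genes from 171 to 286 CPM. CPM is the gene's count scaled to a common library total, after correction of the totals for composition (TMM). The fat cell gene Adipoq was uneven within groups. In Lpr replicates 1 to 4 it was at 0.900, 1.88, 73.5 and 60.1 CPM. It ran from 3.45 to 73.5 CPM in Ctr and from 0.276 to 17.9 CPM in DNase. The part of fat tissue in the receptor values was not tested.

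Of the 8 receptor genes, 5 lie on chromosome 9 of GRCm38 (mm10). Cxcr6 (123806475-123811760), Ccr1 (123962124-123968692) and Ccr2 (124101950-124113557) fall within 307.1 kb, and Cx3cr1 (119901616-120069879) and Ccrl2 (111054486-111057519) lie further toward the centromere. Cxcr4 is at 128588199-128592293 on chromosome 1, Ccr6 at 8236043-8257141 on chromosome 17 and Cxcr3 at 101731535-101734269 on chromosome X. Cxcr6 lies inside the span of Fyco1, on the opposite strand and with 0 shared exon bases. Cx3cr1 shares 78 exon bases with the antisense gene Gm33858, and whether the counting used strand is not given in the sources used here. The coding sequence of Ccr1 matches that of its neighbour Ccr1l1 at 78.2% identity over 956 of 1065 bases, so reads from the most alike stretches of this pair could have been shared or dropped in counting.

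The 250 bases before the RefSeq transcript start (GRCm38.p6) were searched on both strands for 8 factor motifs in all 8 receptor genes. Where a gene had more than 1 listed start, as Ccrl2 (3) and Ccr6 (2) had, only the first was used. The windows of Ccr6 and Ccrl2 are shown because they were 2 of the 3 with a match; bases inside annotated exons are left out and the capitals mark the matches. Ccr6 (chr17:8235793-8236042, plus strand) holds the palindromic GAS motif TTCNNNGAA, bound by STAT factors, at 2 places, and Ccrl2 (chr9:111057520-111057768, minus strand) holds the NF-kappaB consensus at 1.
Ccr6: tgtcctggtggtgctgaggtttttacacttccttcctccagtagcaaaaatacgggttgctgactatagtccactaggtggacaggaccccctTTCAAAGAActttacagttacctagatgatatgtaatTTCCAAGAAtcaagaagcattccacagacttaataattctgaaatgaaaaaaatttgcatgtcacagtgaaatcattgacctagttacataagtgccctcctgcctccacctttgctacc
Ccrl2: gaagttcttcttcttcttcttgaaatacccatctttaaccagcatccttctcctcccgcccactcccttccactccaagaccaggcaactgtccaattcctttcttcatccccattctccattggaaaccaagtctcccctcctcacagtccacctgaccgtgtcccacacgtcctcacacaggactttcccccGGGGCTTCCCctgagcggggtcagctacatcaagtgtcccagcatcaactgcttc
The third match was the PU.1 motif GAGGAAGT in Cxcr3, read on the opposite strand as ACTTCCTC at bases -16 to -9. This match falls inside the Cxcr3 gene span given above and not upstream of it. Of 27025 promoter windows of the same length, 7.18% held the GAS motif, 3.75% the NF-kappaB consensus and 2.44% the PU.1 motif. The T-box motif AGGTGTGA (1.14% of windows), the RUNX motif TGTGGTT (4.46%), the interferon-stimulated response element (ISRE, 3.04%), the AP-1 motif TGANTCA (6.87%) and the C/EBP motif TTGCNNAA (9.55%) had no match in the 8 windows. Some windows overlapped annotated exons. The longest stretch outside exons was 17 bases for Ccr2 and 128 for Cxcr3, and the Cx3cr1 window lay wholly inside them. These are letter matches in a short window and no binding was measured.

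The first comparison asked how the receptor genes differed between untreated MRL/lpr and control kidneys. Ccr1, Cxcr6 and Cx3cr1 rose, by 6.05-, 5.23- and 4.53-fold. Ccr2 and Cxcr3 were 3.46- and 3.57-fold higher and passed the test without reaching the fold threshold. Ccr6, Cxcr4 and Ccrl2 did not pass it, although Ccr6 and Cxcr4 did under other settings given below with each gene. A gene was called at an adjusted p under 0.05 with a log2 fold change above 2 (4-fold), from edgeR's quasi-likelihood test with Benjamini-Hochberg adjustment over the 16074 genes tested. All 8 receptor genes with a row passed the filter on low counts in each comparison. The filter keeps a gene with enough reads in a single group, as for Ccr6 against Ctr, so the shares called are not independent of it. By this rule 3 of 8 were called higher, where 4.65% of all genes tested were. By adjusted p alone it was 5 of 8, against 7.27% of all genes. In 7 of 8 the lowest Lpr library lay above the highest Ctr library, as it did for 14.4% of all genes. The median log2 fold change was 1.98 over the 8 genes and 0.03 over all genes tested. In whole tissue, a change in the number of cells that carry a receptor and a change in its RNA per cell cannot be told apart.

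**Figure D1:**
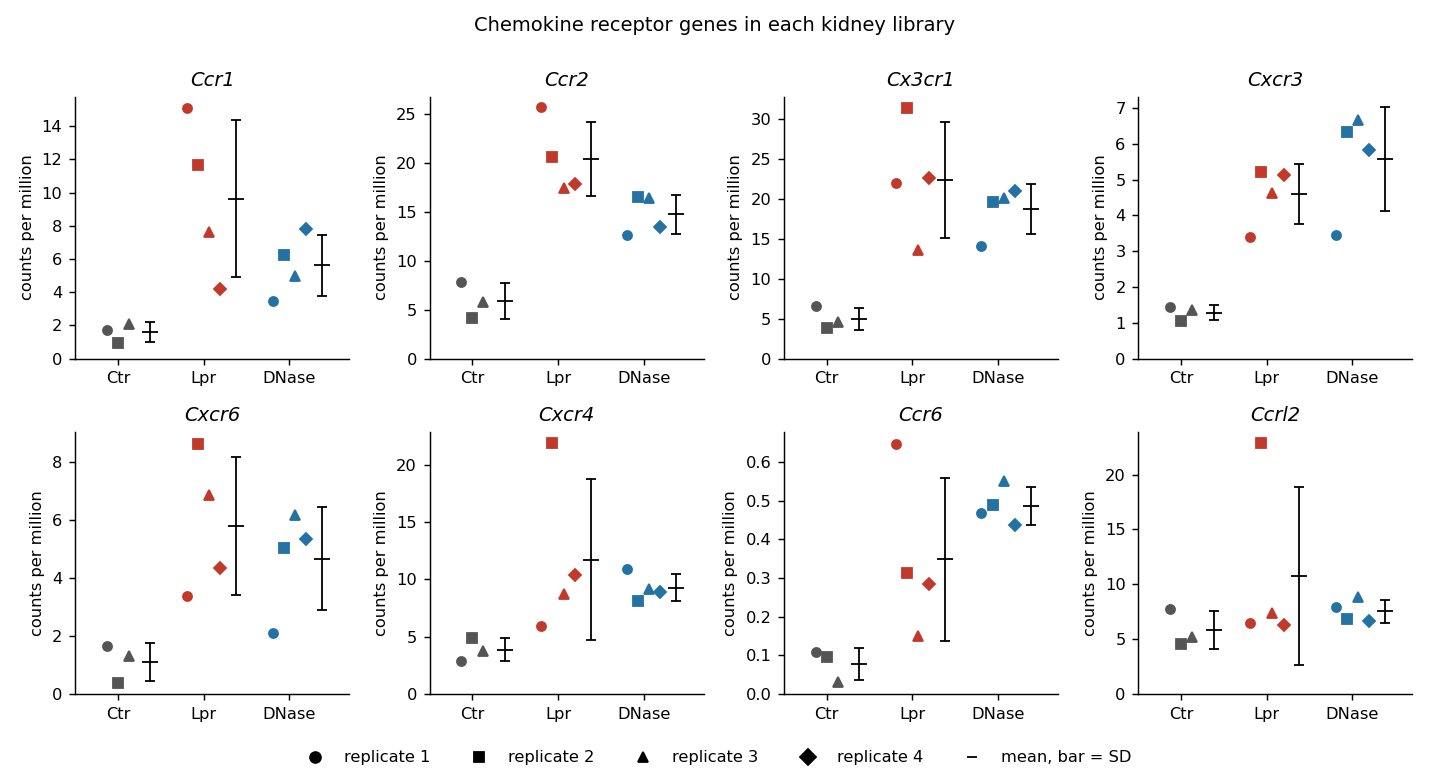
CPM (vertical axes, linear, from 0) of the 8 receptor genes in each of the 3 Ctr, 4 Lpr and 4 DNase libraries; symbols mark the replicate number and the black bar the mean and SD. Every Lpr and DNase library lies above every Ctr library for 7 genes, and Ccrl2 is the exception, with 1 Lpr library at 22.9 and the rest of that group at 7.34 or below.

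Ccr1, a receptor for Ccl3, Ccl5 and related chemokines on monocytes and neutrophils, was at 1.72, 0.957 and 2.10 CPM in the 3 Ctr libraries and at 15.1, 11.6, 7.64 and 4.18 CPM in the 4 Lpr libraries. The groups did not overlap, but the Lpr libraries spanned more than a 3-fold range, with replicates 1 and 2 high and replicate 4 low. Its log2 fold change was 2.60 ± 0.49 (SE; edgeR adjusted p = 0.0114). Without Ctr replicate 1 or Ctr replicate 2 the adjusted p was 0.0561 and 0.0532, so that the call was lost.

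Ccr2, the receptor for Ccl2 that lets monocytes leave the marrow and enter tissue, was at 7.81, 4.18 and 5.75 CPM in Ctr and 25.7, 20.6, 17.5 and 17.9 CPM in Lpr. The Lpr values were close together and all well above Ctr. Its log2 fold change was 1.79 ± 0.27 (SE; edgeR adjusted p = 0.00373).

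Cx3cr1, the fractalkine receptor of patrolling monocytes and resident kidney macrophages, was at 6.52, 3.80 and 4.56 CPM in Ctr and at 22.0, 31.4, 13.6 and 22.6 CPM in Lpr. Lpr replicate 3 was the lowest of its group and still above the highest Ctr library. The log2 fold change was 2.18 ± 0.33 (SE; edgeR adjusted p = 0.00402), and without Lpr replicate 2 it was 1.96, under the fold threshold.

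Cxcr3, which draws activated T cells toward the interferon-induced chemokines Cxcl9 and Cxcl10, was at 1.45, 1.05 and 1.35 CPM in Ctr and at 3.40, 5.22, 4.63 and 5.12 CPM in Lpr. Both groups were narrow and they did not overlap. Its log2 fold change was 1.84 ± 0.29 (SE; edgeR adjusted p = 0.00471).

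Cxcr6, the receptor for Cxcl16 on tissue-homing T cells, was at 1.64, 0.383 and 1.29 CPM in Ctr and at 3.38, 8.61, 6.86 and 4.32 CPM in Lpr. All Lpr libraries lay above Ctr, and Ctr replicate 2, with 12 counts, was the lowest of all. Its fitted log2 fold change was 2.39 ± 0.54 (SE; edgeR adjusted p = 0.0257). This call was the least stable: leaving out Ctr replicate 1, 2 or 3 or Lpr replicate 2 gave adjusted p values of 0.0538, 0.0569, 0.0842 and 0.0625.

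Cxcr4, the receptor for Cxcl12, was at 2.90, 4.88 and 3.78 CPM in Ctr and at 5.91, 21.9, 8.72 and 10.4 CPM in Lpr. The groups did not overlap, yet Lpr replicate 2 was well above the next library and the spread was wide. The log2 fold change of 1.61 ± 0.46 (SE) had an edgeR adjusted p of 0.0606. The adjusted p was under 0.05 with DESeq2 (0.00409), with no filter on low counts (0.0414), with all 11 libraries in 1 fit (0.0137), with the replicate block (0.0418) and without Lpr replicate 1 or 3 (0.0353 and 0.042), always under the fold threshold. Without Lpr replicate 2 the log2 fold change was 1.10.

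Ccr6, the receptor for Ccl20, was the rarest of the genes, with 4, 3 and 1 counts in the Ctr libraries and 23, 12, 5 and 10 counts in the Lpr libraries. Every Lpr library held more reads than any Ctr library, but the numbers are small. The log2 fold change was 2.12 ± 0.69 (SE), with a 95% interval from 0.54 to 3.69 and an edgeR adjusted p of 0.103. With all 11 libraries in 1 fit the adjusted p was 0.0295 in edgeR. Without Lpr replicate 3 the log2 fold change was 2.36 with an edgeR adjusted p of 0.0389. Without Ctr replicate 1, 2 or 3 the edgeR adjusted p was 0.224, 0.231 and 0.325. Without Lpr replicate 1, 2 or 4 Ccr6 was not tested. Whether Ccr6 passed therefore depended on the fit.

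Ccrl2 was at 7.75, 4.53 and 5.15 CPM in Ctr and at 6.47, 22.9, 7.34 and 6.29 CPM in Lpr. Only Lpr replicate 2 lay above the Ctr range, so the groups overlapped. On the log2 scale the difference was 0.89 ± 0.51 (SE; edgeR adjusted p = 0.373), and 0.19 without Lpr replicate 2.

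**Figure D2:**
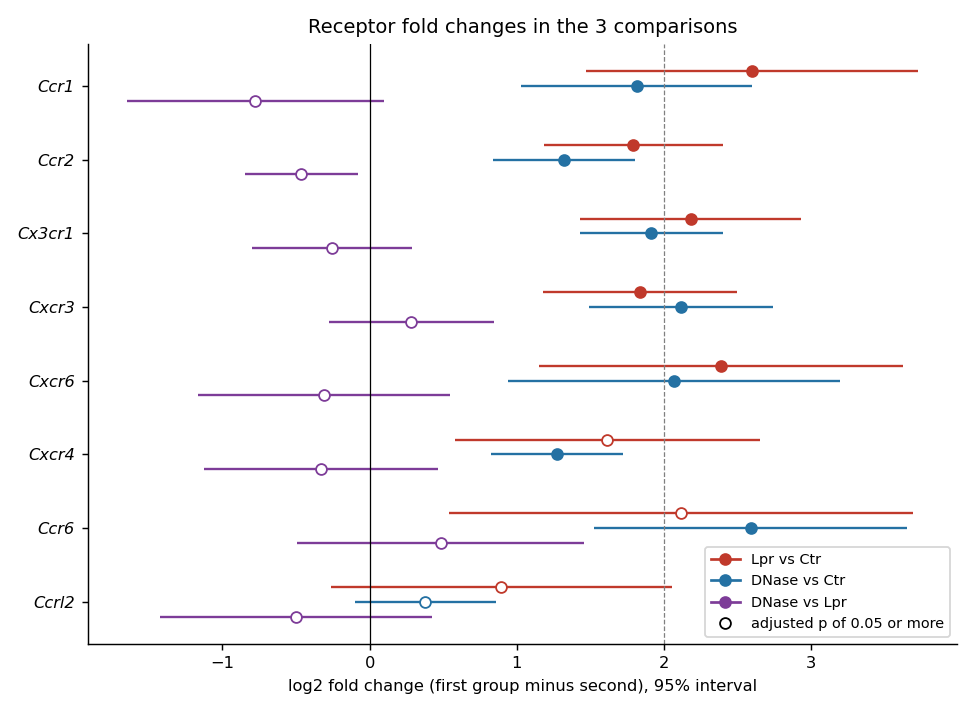
Log2 fold change (horizontal axis) with its 95% interval for the 8 receptor genes in 3 comparisons; filled points have an adjusted p under 0.05 and the dashed line marks a log2 fold change of 2. The intervals of both comparisons with Ctr lie above 0 for 7 genes, and those of DNase against Lpr include 0 for every gene except Ccr2.

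The second comparison asked whether the receptor genes differed between DNase I-treated and untreated MRL/lpr kidneys. No receptor gene was called: the count was 0 of 8, where 0.00% of the 15832 genes tested were called by edgeR in either direction. DESeq2 called 0 of the 8 as well, and 2 higher and 3 lower genes in all. Means were lower in DNase for 6 of the 8 and higher for Ccr6 and Cxcr3, where 47.1% of all genes had a log2 fold change above 0; the median was -0.32 over the 8 genes and -0.02 over all. At an unadjusted p under 0.05 there was 1 of the 8, lower, where 3.43% of all genes were lower.

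That gene was Ccr2. It was at 12.6, 16.6, 16.4 and 13.4 CPM in the DNase libraries, all below the lowest Lpr library at 17.5 CPM; 1.87% of all genes lay wholly below Lpr in this way. This is a log2 fold change of -0.46 ± 0.17 (SE), or 1.38-fold lower, with an unadjusted p of 0.0232 and an edgeR adjusted p of 0.850. The summed level of the 9 macrophage and monocyte markers ran from 1143 to 2256 CPM in Lpr and from 876 to 1690 CPM in DNase, and its part in the Ccr2 difference was not tested.

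Ccr1 had the largest fitted difference of the 8. Its DNase libraries were at 3.45, 6.22, 4.94 and 7.82 CPM, inside the Lpr range apart from replicate 1. Its log2 difference was -0.78, with a 95% interval from -1.65 to 0.10 and an edgeR adjusted p of 0.854. For Cx3cr1 the DNase libraries were at 14.1, 19.6, 20.2 and 21.0 CPM and the interval ran from -0.80 to 0.29. Cxcr6 was at 2.10, 5.03, 6.15 and 5.35 CPM, with an interval from -1.16 to 0.55. Replicate 1 was the lowest of the DNase group for all of these genes.

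Cxcr3 was at 3.45, 6.33, 6.65 and 5.84 CPM in DNase, and 3 of the 4 values were above every Lpr library. Its log2 fold change was 0.28 (95% interval -0.28 to 0.84). Ccr6 had 17, 18, 22 and 17 counts, a narrow group inside the wider Lpr range, and a log2 fold change of 0.48 (-0.49 to 1.45). These intervals leave room for differences of either sign.

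The lower means of Ccrl2 and Cxcr4 in DNase came with a single library. Ccrl2 was at 7.91, 6.79, 8.88 and 6.61 CPM in DNase and its log2 fold change was -0.50; without Lpr replicate 2 it was 0.17. Cxcr4 was at 10.9, 8.12, 9.16 and 8.85 CPM, with a log2 fold change of -0.33 that became 0.15 without that library. Neither sign can be read from these data.

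The third comparison set DNase I-treated MRL/lpr kidneys against the controls, with the same Ctr libraries as the first, so its values are given beside those above and not as a second line of evidence. Ccr6 (6.02-fold), Cxcr3 (4.33-fold) and Cxcr6 (4.19-fold) were called higher, 3 of 8 where 4.56% of the 16100 genes tested were. By adjusted p alone 7 of 8 passed, against 13.1% of all genes, and 7 of 8 did not overlap with Ctr, against 18.0%. Cx3cr1 (log2 fold change 1.91, edgeR adjusted p = 0.00024), Ccr1 (1.81, adjusted p = 0.00507), Ccr2 (1.32, adjusted p = 0.00205) and Cxcr4 (1.27, adjusted p = 0.00162) were higher without reaching the fold threshold. With all 11 libraries in 1 fit Cxcr4 had an edgeR adjusted p of 0.0538. Ccrl2 was not, at 0.38 (95% interval -0.10 to 0.86, adjusted p = 0.255).

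The Ccr6 value rests on 8 reads in the Ctr group, with a log2 fold change of 2.59 and a 95% interval from 1.53 to 3.65 (edgeR adjusted p = 0.00379). In this comparison Ccr6 could pass the filter on low counts only through the DNase libraries. Cxcr3 was at 2.11 ± 0.28 (SE; adjusted p = 0.000573 in edgeR) and Cxcr6 at 2.07 ± 0.50 (SE; adjusted p = 0.0163 in edgeR). Both lie close to the fold threshold: without Ctr replicate 2 they were 1.99 and 1.66. Cxcr6 was also under it without DNase replicate 3 (1.90) or DNase replicate 4 (1.997).

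Levels of different genes were compared in FPKM, which scales each count by gene length and library total. In Ctr the highest receptor gene was Ccrl2, at 2.50 ± 0.77 FPKM (SD, n = 3), clear of Cxcr4 at 1.29, Cx3cr1 at 1.28 and Ccr2 at 1.21 FPKM, which overlapped. Cxcr3 at 0.773, Cxcr6 at 0.568 and Ccr1 at 0.546 FPKM followed, and Ccr6 was last at 0.0176 FPKM. In Lpr, Cx3cr1 was first, at 6.00 ± 2.17 FPKM (SD, n = 4), followed by Ccrl2 at 4.81, Ccr2 at 4.31, Cxcr4 at 4.10, Ccr1 at 3.38, Cxcr6 at 3.04 and Cxcr3 at 2.84 FPKM. In DNase the order was Cx3cr1 at 5.15, Cxcr3 at 3.58, Ccrl2 at 3.47, Cxcr4 at 3.33, Ccr2 at 3.23, Cxcr6 at 2.54 and Ccr1 at 2.04 FPKM. In both MRL/lpr groups each of these genes overlapped with the next in order, and only Ccr6, at 0.0822 FPKM in Lpr and 0.119 FPKM in DNase, stood clear. The median in place of the mean put Ccrl2 at 2.94 FPKM in Lpr.

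**Figure D3:**
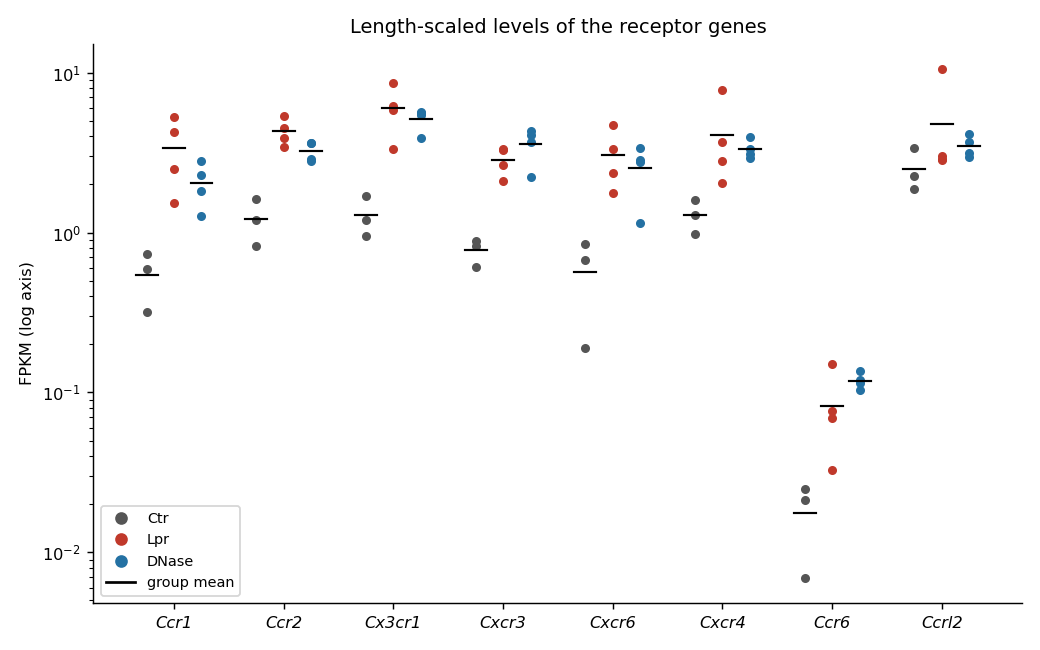
FPKM (log axis) of the 8 receptor genes in each library, with black lines at the group means. Ccr6 lies far below the other genes in every group, and the other 7 crowd together in Lpr and DNase.

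Most ligands of these receptors were higher in Lpr than in Ctr. Of 18 listed, 17 have a row and 16 were tested in Lpr against Ctr; 11 were called higher, where 4.65% of all genes were, and the median log2 fold change was 3.14. Among the ligands listed for Ccr1 and Ccr2, Ccl8 (log2 fold change 6.16), Ccl2 (4.12), Ccl12 (3.90) and Ccl7 (3.55) were called. So were Ccl5 (4.44), Ccl3 (4.21), Ccl9 (2.97) and Ccl6 (2.54). Which receptor Ccl8 acted through was not tested. For Cxcr3, Cxcl9 (4.36) and Cxcl10 (3.31) were called, and Cxcl11 was not analysed here. Ccl19 (2.71), a reported ligand of Ccrl2, was called too. Ccl2 was at 8.02, 10.4, 34.9 and 4.04 CPM in the Lpr libraries, with replicate 3 far the highest, and its log2 fold change was 3.19 without it. Its edgeR adjusted p was 0.0534, 0.0535 and 0.0593 without Ctr replicate 1, 2 or 3. Ccl5 was at 3.83 without Lpr replicate 2, and Ccl7 at 4.18 without Ctr replicate 1. Leaving out 1 library at a time, a check added after the values were seen, gave 8 to 11 ligands called, and Ccl2, Ccl6, Ccl7 and Ccl12 each lost the call at least once.

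The other ligands with a row behaved unevenly. Cxcl16, the membrane-bound ligand of Cxcr6, was at 51.5, 50.9 and 53.2 CPM in Ctr and at 180, 219, 202 and 124 CPM in Lpr, a log2 fold change of 1.81 (edgeR adjusted p = 0.00158). Cx3cl1 (fractalkine, 0.29, adjusted p = 0.613 in edgeR) and the Cxcr4 ligands Cxcl12 (0.17, adjusted p = 0.744 in edgeR) and Mif (0.02, adjusted p = 0.974 in edgeR) did not pass, and neither did Rarres2, which encodes chemerin (0.83, adjusted p = 0.216 in edgeR). Ccl20, the Ccr6 ligand, had too few reads to be tested: 149 in Lpr replicate 3 and no more than 11 in any other Lpr library. Of the proteases that shed or trim ligands, Adam17 was higher (0.77, adjusted p = 0.014 in edgeR), Adam10 was at 0.26 and Dpp4 at -0.04.

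Between DNase and Lpr, 2 of 17 ligands had a log2 fold change above 0, where 47.1% of all genes did, and 15 had one below 0; the median was -0.84. None was called (0 of 17), and 6 were lower at an unadjusted p under 0.05, where 3.43% of all genes were. The smallest was that of Cxcl10, at 21.3, 26.9, 26.4 and 25.1 CPM in DNase and at 78.8, 58.6, 53.3 and 23.7 CPM in Lpr. Lpr replicate 4 was as low as the DNase libraries. The log2 fold change was -1.10 (unadjusted p = 0.005, edgeR adjusted p = 0.820). Cxcl9, the other Cxcr3 ligand, was at 48.2, 68.0, 101.7 and 82.6 CPM in DNase, inside the Lpr range of 52.4 to 150.1 CPM apart from 1 library. Cxcl16 was at 113, 117, 125 and 134 CPM in DNase, and again 1 Lpr library, replicate 4 at 124 CPM, lay among them. Against Ctr, 9 of 16 ligands were called higher in DNase, where 4.56% of all genes were, and 12 passed by adjusted p alone, against 13.1%.

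**Figure D4:**
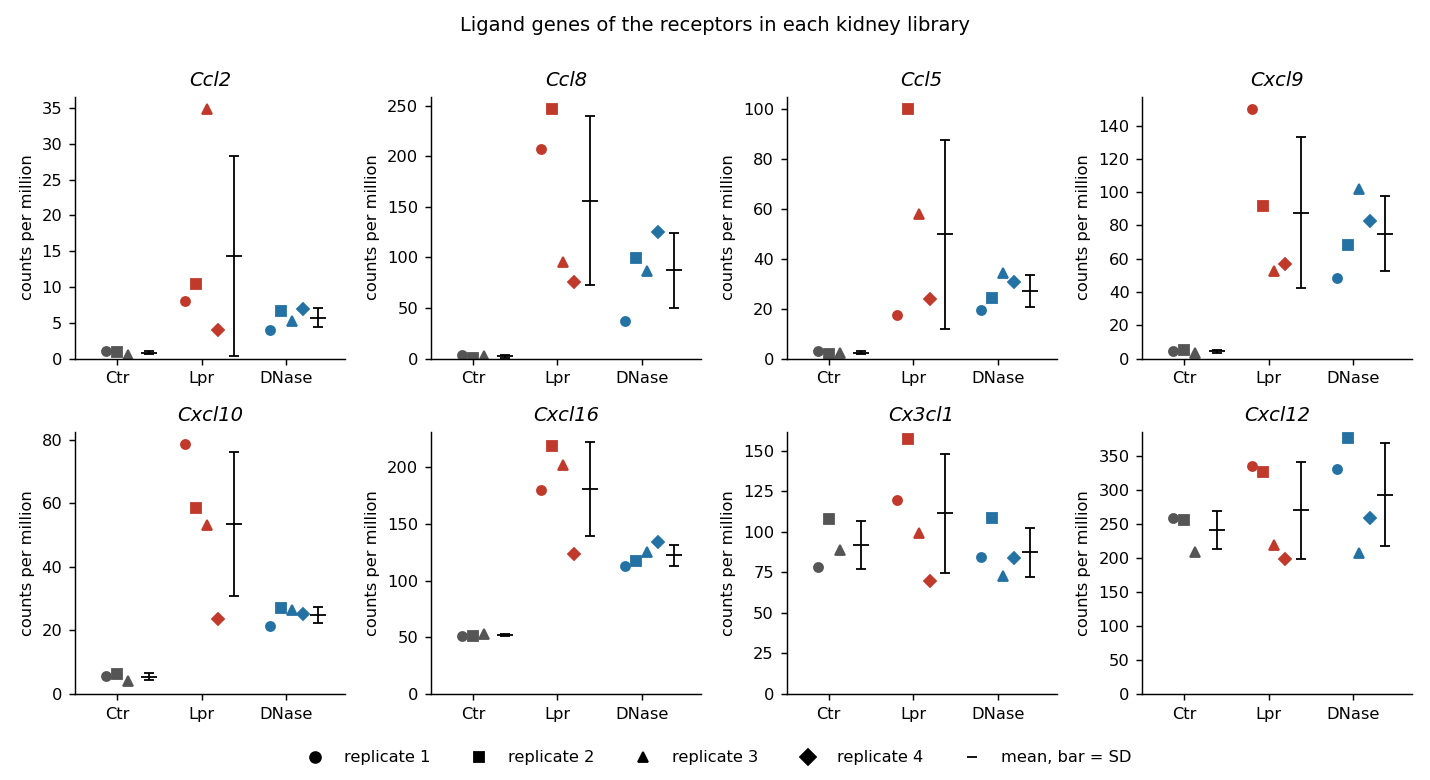
CPM (linear axes from 0) of 8 ligand genes in each library, with the mean and SD as black bars. Ccl2, Ccl8, Ccl5, Cxcl9, Cxcl10 and Cxcl16 are higher in every MRL/lpr library than in any Ctr library, and Cx3cl1 and Cxcl12 overlap across the groups.

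Among 15 other chemokine receptors, 14 have a row and 10 were tested in Lpr against Ctr, of which 4 were called higher, where 4.65% of all genes were. Xcr1 of cross-presenting dendritic cells (3.12, adjusted p = 0.0067 in edgeR) and the decoy receptor Ackr2 (2.09, adjusted p = 0.0215 in edgeR) were called. Cxcr5 of follicular B and T cells and Ccr3 of eosinophils had at most 3 counts in each Ctr library, too few for a fold; their means were 0.0481 and 0.00999 CPM in Ctr and 1.79 and 0.387 CPM in Lpr (adjusted p = 0.0156 and 0.0134 in edgeR). In DNase against Ctr, which shares those controls, 4 of 9 tested were called, where 4.56% of all genes were, and in DNase against Lpr 0 of 11. With so few Ctr reads, Cxcr5 and Ccr3 could pass the low-count filter against Ctr only through the MRL/lpr libraries. The 4 of 10 and 4 of 9 are therefore not independent of the filter. Without a Ctr library the count in Lpr against Ctr was 1, 1 and 2, and without Lpr replicate 1 or 2 it was 2; Xcr1 was called each time.

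Downstream of the receptors, 5 of 21 genes for signalling and desensitisation were called higher in Lpr against Ctr, where 4.65% of all genes were, and 7 passed by adjusted p, against 7.27%. The largest were Rgs1, which shortens Gi signals in lymphocytes (4.96), Pik3r5, a regulatory subunit of phosphoinositide 3-kinase gamma (3.63), the leukocyte GTPase Rac2 (3.10) and its activator Dock2 (2.98). Rgs1 was at 4.37 without Lpr replicate 2 and at 5.56 without Ctr replicate 1. In DNase against Ctr the log2 fold changes of these 4 genes were 4.41, 3.72, 3.07 and 3.02, with 5 of 21 called, where 4.56% of all genes were, and 15 passing by adjusted p, against 13.1%. Without Ctr replicate 2 or 3 the count in Lpr against Ctr was 3, with Dock2 at adjusted p values of 0.0563 and 0.0548 in edgeR. Between DNase and Lpr 0 were called, and the largest differences were those of Rgs2 (-0.62), Rgs1 (-0.53), Arrb2 (-0.48) and Grk3 (0.33).

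Markers of the cells that carry these receptors moved with the comparisons with Ctr. All 6 T cell markers (Cd2, Cd3d, Cd3e, Cd3g, Cd5 and Lck) were called higher in Lpr against Ctr, where 4.65% of all genes were. Their summed level ran from 2.97 to 5.15 CPM in Ctr, from 34.7 to 101.95 CPM in Lpr and from 36.6 to 68.5 CPM in DNase. The same share applies to the counts of the next lists. Of 9 macrophage and monocyte markers, 8 were called, among them Adgre1 and C1qa. Csf1r was higher by a log2 fold change of 0.89 (adjusted p = 0.0382 in edgeR), under the fold threshold. The sums of all 9 ran from 178 to 244 CPM in Ctr. For 4 B cell markers 1 was called and the sums were 1.05 to 5.39 CPM in Ctr, 7.82 to 17.4 CPM in Lpr and 12.5 to 28.2 CPM in DNase. No marker of these 3 lists was at 0 in every library of a group. Their part in the receptor differences was not tested.

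As a description chosen after the values were seen, each receptor was set against a marker list of a cell type known to carry it, as log2 CPM of the receptor minus the mean log2 CPM of the list. Only differences between groups are read, since the level depends on gene lengths. For Cxcr3 against the T cell list the mean was 1.01 in Ctr, -0.88 in Lpr and -0.54 in DNase. For Ccrl2 against the macrophage list it was -1.05, -3.44 and -3.49, and for Ccr2 -1.03, -2.30 and -2.53. Cx3cr1 moved least of the genes without overlap, from -1.27 to -2.21 and -2.20. The Ctr libraries lay above all MRL/lpr libraries for these 4 pairs and for Cxcr6 and Cxcr4 against the T cell list. Ccr1 against the macrophage list and Ccr6 against the B cell list overlapped between the groups. For Ccr6 this depended on the list. Against the T cell list its lowest Ctr library was at -2.55, and its highest Lpr and DNase libraries were at -2.81 and -3.34. Ccr6 had a mean of 0.0777 CPM in Ctr, below the pseudocount of 0.1 CPM, so its ratios there lie at the floor. The macrophage list averages markers that moved unequally in Lpr against Ctr, by log2 fold changes from 0.89 (Csf1r) to 4.22 (Ly6c2). Ccrl2 was at 0.89, Ccr2 at 1.79 and Cx3cr1 at 2.18. Only Csf1r rose less than Ccr2 and Cx3cr1, so the direction of their ratios would differ against it alone.

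**Figure D5:**
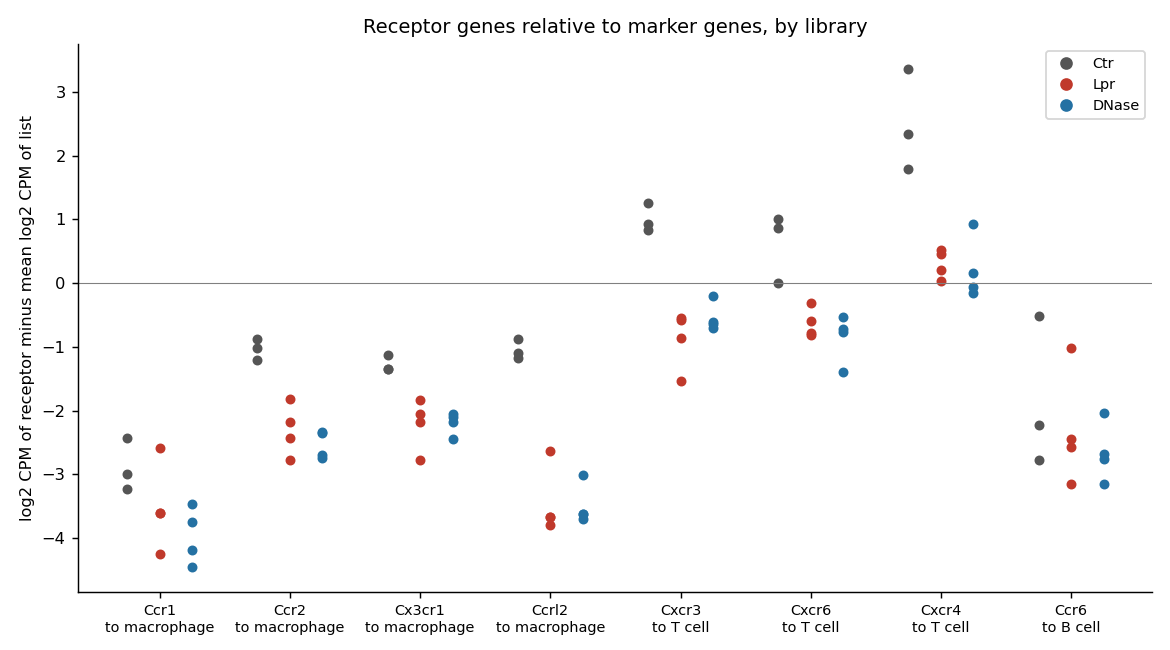
Log2 CPM of each receptor gene minus the mean log2 CPM of a marker list (vertical axis), 1 point per library in 3 groups. Ctr points lie above Lpr and DNase points for 6 pairs, and the groups overlap for Ccr1 and for Ccr6 against the B cell list.

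Within the 8 MRL/lpr libraries the receptors did not vary as one group. The correlation of log2 CPM was 0.75 for Ccr1 with Ccr2 and 0.68 for Cxcr3 with Cxcr6, and 0.71 and 0.75 without Lpr replicate 2. Ccrl2 with Cxcr4 was at 0.89 with that library and 0.35 without it. Ccr1 with Cxcr4 was at -0.04 and Ccr2 with Cxcr4 at -0.09, and without Lpr replicate 2 (n = 7) they were at -0.94 and -0.80. Cxcr6 with Cx3cr1 was at 0.46, at 0.82 without Lpr replicate 3 and at 0.15 without Lpr replicate 2. Ccr1 with Cxcr3 was at -0.16. These are descriptions over 8 libraries of 2 groups.

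The genes most like each receptor over these 8 libraries were sought among 13171 candidates, where high correlations arise easily. For Cxcr6 they were Ptprcap (0.98), Lsp1 (0.97) and Slc16a3 (0.96), the first 2 being leukocyte genes. For Cx3cr1 they were Ubap1, Tlr7 and Inpp5d (all 0.97), and for Cxcr3 Tspyl3 (0.94), Cd79a (0.93) and Mzb1 (0.91). Ccr1 was followed by Aldh1b1 (0.97), Mybl2 (0.96) and Agt (0.96), Ccr2 by Zswim1 (0.96), Mob3c (0.95) and Incenp (0.94), and Ccr6 by Abcb6, Arhgef19 (both 0.98) and Pidd1 (0.97). For Cxcr4 they were Tent2 (0.98), Rlim (0.96) and Ptgs2 (0.95), and for Ccrl2 Hpcal4, Lmcd1 and P2ry10 (all 0.98). Without Lpr replicate 2 the Ccrl2 values fell to 0.79, 0.80 and 0.77. Without Lpr replicate 3, the library with the length trend, the closest genes were Sesn2 for Cxcr6, Tnfsf13b for Ccrl2, Terf2ip for Cx3cr1, Tmem176a for Ccr1, Spryd4 for Ccr2, Zfp319 for Ccr6 and Sytl2 for Cxcr4, so 1 library changes which gene comes first for these 7.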

How the data were processed

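Kidney RNA of 11 mice was sequenced as 100 bp paired-end reads. The deposited raw counts per gene were made by the authors with HTSeq; the labels also list fastp, DESeq2, R 3.2.0 and the build mm10, and the aligner and annotation are not given in the sources used here. The authors also deposited FPKM values made from the same counts. Columns were matched to samples by title, and 0 columns were left unused.

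Each pair of groups was fitted alone with edgeR 4.0.16 (R 4.3.3; filterByExpr, TMM, quasi-likelihood test, Benjamini-Hochberg adjustment over all genes tested). Alternatives were DESeq2 1.42.0 and limma 3.58.1, the latter on log2 FPKM with a pseudocount of 1 or 0.1 where the mean reached 0.5 FPKM. The scripts were tested on simulated counts. The log2 ratio to marker lists used a pseudocount of 0.1 CPM. Likeness was the Pearson correlation over MRL/lpr libraries among genes with a mean of at least 1 CPM. Gene positions are from GENCODE on GRCm38, promoter sequences from RefSeq (all 8 genes matched by symbol), and coding sequences were compared with blastn 2.17.0. Each replicate is 1 mouse, and p-values measure the spread between these mice. With 33469858 to 38460873 counts per library, genes with a few reads, such as Ccr6, carry counting error. Receptors, ligands, other receptors and signalling genes were named or counted by a set rule, with values for called receptors and the 4 largest signalling changes. Of the marker lists, those of T cells, macrophages and monocytes, B cells, proximal tubule and podocytes are given. From the fat tissue list only Adipoq is given. The receptors and gene lists were chosen with earlier results of these data known, and the motifs and receptor-to-marker pairs after values were seen. A receptor of the lists and a gene among those most like a receptor are not reported here.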

Additional observations from a re-analysis of the deposited data

Results flagged for a closer look

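In 56 sets of 4 libraries (each receptor, ligand and ligand-processing gene in Lpr and in DNase), 5 held a library far from the other 3 by Dixon's test, whose critical value for 4 samples is 0.829; chance alone gives about 1 in 20. Ccrl2 in Lpr replicate 2 was at 22.9 CPM, with the next library at 7.34 CPM. Ccl20 in Lpr replicate 3 was at 4.48 CPM and the next at 0.287 CPM. Mif in the same library was at 467.5 CPM and the next at 253 CPM. Rarres2 in DNase replicate 2 was at 35.8 CPM, above 30.2 CPM. Dpp4 in DNase replicate 3 was low, at 103 CPM, below 129.98 CPM.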

How the results depend on the processing

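The count of receptor genes called was 3 in Lpr against Ctr, 0 in DNase against Lpr and 3 in DNase against Ctr. With no threshold on the fold change it was 5, 0 and 7. With limma on log2(FPKM + 1), a scale that shrinks the fold of low genes, it was 0 in all 3 comparisons, and Ccr6 was not tested there. With an offset for gene length it was 1 in DNase against Ctr. Leaving out 1 library at a time gave 1 to 4 in Lpr against Ctr (1 without Ctr replicate 2 or Lpr replicate 2), 0 to 0 in DNase against Lpr, and 1 to 4 in DNase against Ctr (1 without Ctr replicate 2). In Lpr against Ctr, Ccr6 was not tested without Lpr replicate 1, 2 or 4. The direction of single receptors turned only without Lpr replicate 2, in DNase against Lpr, where Ccrl2 was 0.17 (range over single libraries left out -0.69 to 0.17) and Cxcr4 0.15 (-0.55 to 0.15). Same-numbered libraries did not deviate together (correlations of -0.11 to 0.16 for DNase with Lpr), so the numbers were not taken as pairs; the replicate block gave 2, 0 and 2 receptors called, and Cxcr6 had edgeR adjusted p values of 0.0503 and 0.107 against Ctr. With 3 or 4 mice a group, the width of the intervals limits what can be said of differences under 2-fold. Apart from the threshold, these changes were not traced to a cause: the cause was not tested.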
